A study of Mus musculus with 31 samples.

Results

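The 9 genes described here, Ccr1, Ccr2, Ccr4, Ccr6, Ccr8, Ccr9, Cxcr3, Cxcr4 and Cxcr6, encode receptors for tissue and inflammatory chemokines. They were taken by name from the 24594 genes of the count table, and all 9 passed the filter on low counts that left 15202 genes for testing. Their RNA was followed in 31 libraries of regulatory T cells (Tregs, CD4 T cells that restrain immune responses) from mice with and without mammary tumors, which addresses where in the body a tumor is accompanied by a different set of homing receptors. Tregs were sorted by flow cytometry as living cells positive for CD45, CD3, CD4 and CD25 and negative for CD8, so neither the gate nor the labels include FOXP3, the transcription factor that defines the lineage.

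All mice were on the FVB/N background and carried floxed Cdh1 and Trp53, the genes of E-cadherin and p53. KEP mice were K14cre;Cdh1F/F;Trp53F/F. The keratin 14 promoter drives Cre in epithelium, where both genes are then deleted, and the mice bore spontaneous mammary tumors of 225 mm2. WT mice were wt;Cdh1F/F;Trp53F/F, with the same floxed alleles and no K14cre. There were 3 libraries of each genotype from blood, from spleen, from lung and from lymph nodes, which in KEP mice drained the tumor. KEP mice also gave 3 libraries from the tumor, and WT mice 4 from mammary gland. A KEP library holds the cells of 1 mouse, whereas a WT library pools 3 mice; 4500 to 70000 cells were sorted for each. The labels state an enzyme digestion for tumors and lungs. Ages are not given in the sources used here.

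Chemokine receptors are receptors of the cell surface that couple to inhibitory G proteins and steer a cell up a gradient of small secreted proteins, the chemokines. CCR1 binds CCL3 and CCL5, among others, and CCR2 binds CCL2 and related monocyte chemoattractants; monocytes also carry both. CCR4 and CCR8 mark T cells that home to skin and barrier tissue and activated Tregs, CCR6 answers CCL20 at mucosal surfaces, and CCR9 answers CCL25 in the gut and thymus. CXCR3 is induced by the transcription factor T-bet and binds the interferon-induced CXCL9 and CXCL10, CXCR6 binds CXCL16, and CXCR4 binds CXCL12 and holds cells in bone marrow and other tissues. In bulk RNA, fewer cells of a type and less RNA per cell cannot be told apart.

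Short motifs of transcription factors active in T cells were looked for in the 250 bases before each RefSeq gene start; all 9 genes were matched. The promoters of Cxcr4, Ccr8, Ccr4 and Ccr1 are shown as examples of receptors that differed in lung (Cxcr4), in the tumor (Ccr8 and Ccr1) and between KEP and WT mice (Ccr1, and Ccr4 in a fit of 24 libraries). Ccr2, which differed more between KEP and WT mice than Ccr4, is not shown, since 233 of the 250 bases of its window are annotated as exon. They are RefSeq sequences on GRCm38.p6, read 5′ to 3′ on the strand of the gene and without any base that the GENCODE annotation counts as exon; motif matches are in capitals. The Cxcr4 window is chr1:128592300-128592549 on the minus strand, the Ccr8 window chr9:120091883-120092113 on the plus strand, the Ccr4 window chr9:114496563-114496794 on the minus strand and the Ccr1 window chr9:123968693-123968942 on the minus strand.
Cxcr4: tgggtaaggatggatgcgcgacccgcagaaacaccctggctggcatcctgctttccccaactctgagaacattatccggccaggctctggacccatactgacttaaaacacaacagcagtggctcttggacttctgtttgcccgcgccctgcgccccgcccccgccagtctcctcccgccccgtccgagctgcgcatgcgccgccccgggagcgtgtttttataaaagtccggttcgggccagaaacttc
Ccr8: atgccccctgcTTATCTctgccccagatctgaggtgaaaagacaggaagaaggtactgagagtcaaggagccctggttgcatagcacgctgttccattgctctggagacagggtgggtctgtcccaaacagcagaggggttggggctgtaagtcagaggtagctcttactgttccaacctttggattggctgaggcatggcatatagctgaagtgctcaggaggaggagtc
Ccr4: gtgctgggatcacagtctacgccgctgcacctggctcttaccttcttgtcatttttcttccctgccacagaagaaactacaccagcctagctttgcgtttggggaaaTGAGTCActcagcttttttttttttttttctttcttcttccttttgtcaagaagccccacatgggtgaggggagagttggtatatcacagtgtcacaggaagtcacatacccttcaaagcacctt
Ccr1: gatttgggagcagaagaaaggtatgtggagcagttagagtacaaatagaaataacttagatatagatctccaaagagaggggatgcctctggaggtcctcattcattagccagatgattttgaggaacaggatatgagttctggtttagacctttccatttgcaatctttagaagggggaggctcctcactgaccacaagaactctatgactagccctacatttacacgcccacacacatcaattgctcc
The capitals in the Ccr8 promoter are a match to AGATAA on the opposite strand, the motif of GATA factors. Those in the Ccr4 promoter match TGANTCA, the motif of AP-1. No motif overlapped another. In windows of 250 bases, AGATAA on either strand occurred in 9.99% of the 32851 RefSeq promoters searched and TGANTCA in 6.75%. No match in these 4 windows was found for TTCNNNGAA (STAT, 7.02%), ACGTG (core of the hypoxia response element, 16.6%) or AGGTGT (T-box, 11.8%). Among the other receptors, Ccr2 held AGATAA within bases that GENCODE counts as exon, and Ccr6 held TTCNNNGAA at its upstream start and both ACGTG and AGATAA at its second annotated start. A match is a run of letters and was not tested as a binding site.

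On GRCm38, 6 of the 9 genes lie on chromosome 9. Ccr9 (chr9:123678439-123784330, plus strand), Cxcr6 (chr9:123806475-123811760, plus), Ccr1 (chr9:123962124-123968692, minus) and Ccr2 (chr9:124101950-124113557, plus) start within 423.5 kb, while Ccr4 (chr9:114490316-114504916, minus) and Ccr8 (chr9:120092114-120094906, plus) lie apart from them. Cxcr4 is at chr1:128588199-128592293 (minus), Ccr6 at chr17:8236043-8257141 (plus) and Cxcr3 at chrX:101731535-101734269 (minus). Counts of Ccr9 are uncertain, since its span overlaps 6 other annotated genes, Slc6a20a and Lztfl1 among them, 19.6% of its 65-base stretches occur elsewhere in the annotated transcripts, and the strand setting of the counting is not stated. For Ccr2 that share was 1.36% and for Ccr4 0.764%; the span of Cxcr6 overlaps Fyco1, but their exons do not.

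Depth ran from 8154765 counts in a WT lung library to 15258958 in a WT mammary gland library. Levels are in CPM, a gene's counts relative to the TMM-scaled total of its library, and are given as mean ± SD (n = 3 libraries per group, n = 4 for WT mammary gland). Libraries from blood, lung, spleen and lymph node were alike in T cell content: the sum of 10 pan-T genes (CD3 chains and proximal T cell signalling genes) ran from 88.9 to 107% of the WT spleen mean in the 24 libraries. Tumor libraries stood at 106, 60.8 and 31.3% and gland libraries at 2.83 to 31.5%. In the gland, 6 milk genes summed to 5223 to 29391 CPM and 9 epithelial genes to 5232 to 7135 CPM, so most RNA of those libraries did not look like that of the sorted Tregs their label names. Foxp3 ran from 716 to 1747 CPM in the 24 libraries and from 18.7 to 417 CPM in the gland.

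**Figure D1:**
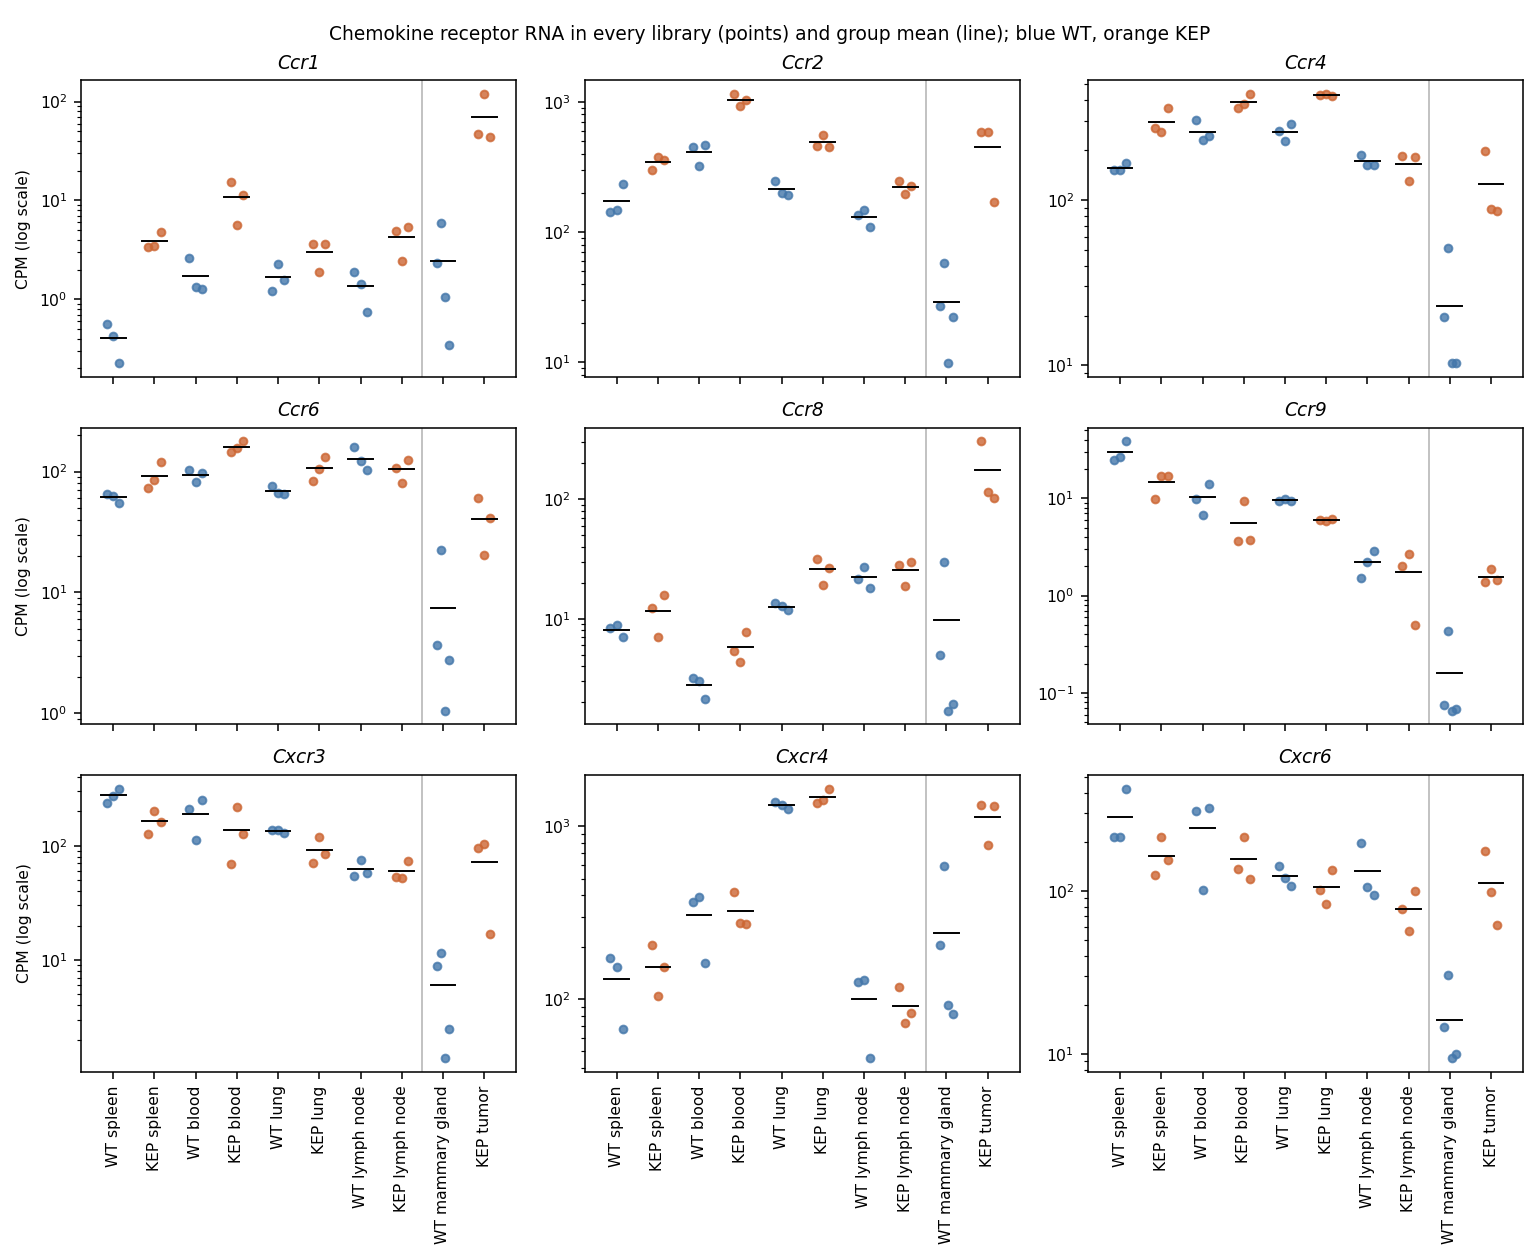
CPM of each receptor gene on a log axis (y) in the 10 groups of tissue and genotype (x), with 1 point per library and a line at the group mean, blue for WT and orange for KEP; n = 3 libraries per group and 4 for WT mammary gland. Ccr1 and Ccr8 are highest in all 3 tumor libraries, Cxcr4 is above 1000 CPM in all 6 lung libraries, and the gland has the lowest mean of 6 of the 9 receptors, Ccr1, Ccr8 and Cxcr4 being the exceptions.

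Within a sample, levels were set beside each other per kilobase of exon. In WT spleen Cxcr3 and Cxcr6 stood highest, at means of 159.6 and 147 CPM per kb, and Ccr1 lowest, at 0.143 CPM per kb. In WT lung Cxcr4 stood at 732 CPM per kb, above Ccr4 at 83.3 and Cxcr3 at 77.7. In KEP blood Cxcr4 (179 CPM per kb), Ccr2 (153) and Ccr4 (127) led. In the tumor Cxcr4 (631 CPM per kb) was followed by Ccr8 (148), which in WT spleen had 6.89.

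KEP against WT mice, the inflammatory receptors. Outside the tumor, the mean RNA levels of the inflammatory receptors Ccr2 and Ccr1 were higher in Tregs of tumor-bearing mice. Of these differences the fit of all 31 libraries called only that of Ccr1 in blood. Ccr2 was 414 ± 79.2 CPM in WT blood against 1036 ± 113 CPM in KEP blood, and the KEP libraries lay above the WT libraries in blood, spleen, lung and lymph node alike. Of the 9 receptors no other did so in all 4 tissues, while 1.98% of the genes tested did so upward and 1.04% downward. Ccr1 was nearly absent from WT spleen and stood at a few CPM in KEP spleen. How many of these differences passed the test depended on which libraries shared the fit.

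Ccr2 measured 449.8, 323 and 469 CPM in the WT blood libraries and 1154, 929 and 1024 CPM in the KEP blood libraries. In spleen it was 143, 147 and 232 CPM in WT and 299.5, 379 and 359 CPM in KEP. The groups did not overlap in either tissue. In lung the values were 246, 199.7 and 192 CPM in WT and 456, 559.6 and 449.9 CPM in KEP, and in lymph node 134, 146 and 109 and 244, 197 and 224 CPM. Again every KEP library exceeded every WT library. In the fit of all 31 libraries (edgeR's quasi-likelihood F test, Benjamini-Hochberg adjusted over the genes tested) the log2 fold change of Ccr2 was 1.32 (SE 0.40, adjusted p = 0.0633) in blood, 1.20 (SE 0.40, adjusted p = 0.1001) in lung, 0.99 (SE 0.40, adjusted p = 0.485) in spleen and 0.77 (SE 0.40, adjusted p = 0.907) in lymph node, none of them below 0.05. That fit shares its spread with the gland and tumor libraries. In the fit of the 24 libraries of the 4 tissues alone, Ccr2 was called in all 4, at 1.30 (SE 0.18, adjusted p = 8.71e-05) in blood, 1.19 (SE 0.18, adjusted p = 0.000233) in lung, 0.99 (SE 0.18, adjusted p = 0.00220) in spleen and 0.78 (SE 0.18, adjusted p = 0.0374) in lymph node.

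Ccr1 was scarce outside the tumor. It gave 3 to 6 counts per library in WT spleen, or 0.564, 0.428 and 0.224 CPM, and 3.35, 3.46 and 4.76 CPM in KEP spleen. In blood it was 2.60, 1.33 and 1.27 CPM in WT and 15.3, 5.70 and 11.3 CPM in KEP, so the groups were apart in both tissues. The difference in blood was the 1 call among the receptors in the fit of 31 libraries, with a log2 fold change of 2.62 (SE 0.64, adjusted p = 0.0219). That call was lost in 4 of the 6 fits that left out a blood library (WT replicates 2 and 3, KEP replicates 1 and 3; adjusted p up to 0.0973) and with sorted cell number as a covariate (1.51, SE 0.48, adjusted p = 0.0997). The fit of 24 gave 2.60 (SE 0.41, adjusted p = 0.000126). In spleen the estimate was 3.25 (SE 0.75, adjusted p = 0.0509) in the fit of 31 and 3.25 (SE 0.49, adjusted p = 0.000159) in the fit of 24. In lymph node Ccr1 was 1.88, 1.44 and 0.745 CPM in WT and 4.87, 2.44 and 5.35 CPM in KEP, also without overlap, and in lung 1.22, 2.27 and 1.58 and 3.59, 1.87 and 3.61 CPM, where the ranges overlapped; neither was called (adjusted p = 0.0525 and 0.168 in the fit of 24).

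Because monocytes and macrophages express both genes, their markers were set beside these values. The summed level of 11 tested macrophage and monocyte genes was 63.1 to 139.6 CPM in WT and 70.4 to 83.6 CPM in KEP blood, 26.02 to 65.5 and 39.0 to 48.7 CPM in spleen, 112 to 188 and 43.4 to 87.6 CPM in lung and 12.8 to 19.8 and 18.4 to 22.7 CPM in lymph node. The fit of 31 libraries called none of the 11 between KEP and WT in any of the 4 tissues. It did not call Ccr2 in any of them either. That fit called 2.18% of all genes higher in blood, 0.434% in spleen, 1.66% in lung and 0.0132% in lymph node. Marker calls from the fit of 24 libraries are not given here. The lung sum of the macrophage and monocyte genes was lower in KEP than in WT. C1qa was at 0 in all blood libraries of both genotypes, C1qb and C1qc in WT blood, and Cd14 in WT spleen and WT lymph node. Foxp3 was higher on average in KEP Tregs of all 4 tissues: blood had 986 CPM in WT mice and 1691 CPM in KEP mice, spleen 828 and 1286 CPM, lung 1006 and 1432 CPM, and lymph node 1066 and 1226 CPM. Its part in the receptor differences was not tested. None of the 6 Treg identity genes was called in these 4 comparisons in the fit of 31 libraries. Foxp3 was nonetheless higher in every KEP than in every WT library of blood (1589 to 1747 against 892 to 1079 CPM). The same held in spleen and lung, while in lymph node the ranges overlapped.

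**Figure D2:**
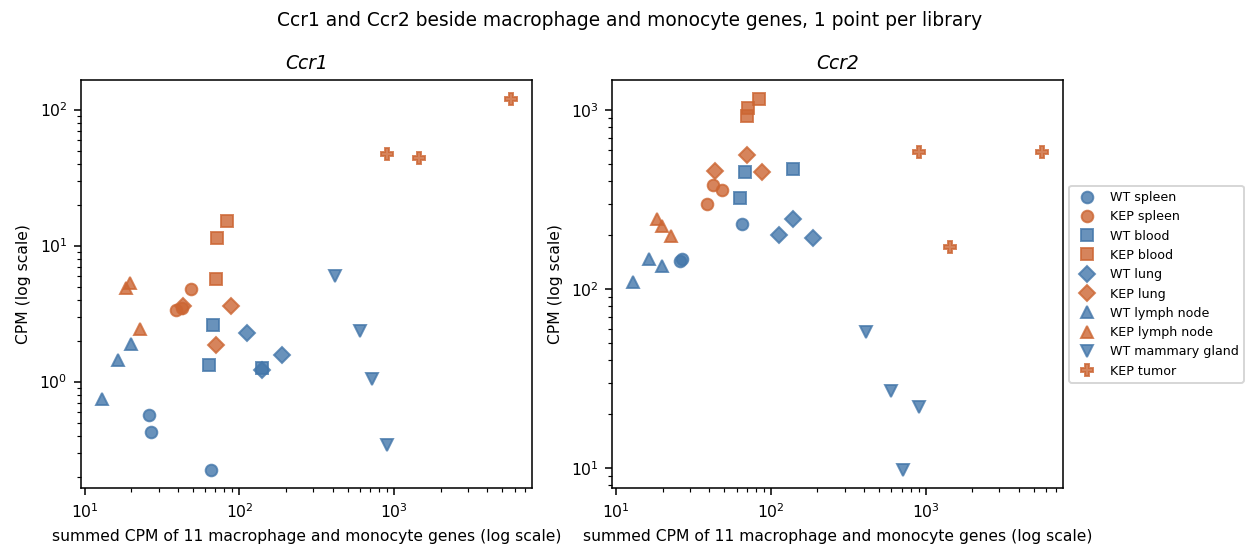
CPM of Ccr1 and Ccr2 (y, log axis) against the summed CPM of 11 macrophage and monocyte genes (x, log axis), 1 point per library, with a symbol per tissue and blue for WT and orange for KEP. KEP blood, spleen and lymph node lie above their WT counterparts in both genes, and their marker sums overlap those of WT. The mean marker sums of WT and KEP were 16.4 and 20.2 CPM in lymph node, 39.4 and 43.4 CPM in spleen and 90.2 and 75.1 CPM in blood. The tumor library with the highest marker sum also has the highest Ccr1.

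KEP against WT mice, the receptors of skin, barrier and activated Tregs. Ccr4 was higher in KEP Tregs of spleen, lung and blood by less than 2-fold, without a difference of that kind in the lymph node. It measured 152, 151 and 168 CPM in WT spleen and 271, 256 and 358 CPM in KEP spleen. In lung it measured 261, 226 and 286 CPM in WT and 430.1, 437 and 426 CPM in KEP, and in blood 304, 229 and 244 and 360.4, 379 and 439 CPM. KEP libraries lay above WT libraries in these 3 tissues and overlapped them in lymph node (187, 163 and 164 CPM in WT, 185, 129.9 and 181 CPM in KEP). Ccr4 was not called in the fit of 31 (lowest adjusted p = 0.300, in lung) and was called in the fit of 24 in spleen (0.91, SE 0.13, adjusted p = 0.000149), lung (0.73, SE 0.13, adjusted p = 0.000736) and blood (0.58, SE 0.13, adjusted p = 0.00390).

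Ccr8 was about 2-fold higher in KEP lung and blood, at low levels. It was 13.5, 12.7 and 11.7 CPM in WT lung and 31.9, 19.2 and 26.8 CPM in KEP lung, and 3.23, 3.00 and 2.15 CPM in WT blood and 5.43, 4.34 and 7.73 CPM in KEP blood. The groups did not overlap in either tissue, while in spleen and lymph node they did. The fit of 24 called 1.03 (SE 0.25, adjusted p = 0.00628) in lung and 1.05 (SE 0.32, adjusted p = 0.0235) in blood, against adjusted p = 0.413 and 0.496 in the fit of 31.

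Ccr6 followed a similar course. It was 103, 82.2 and 97.1 CPM in WT and 146, 158 and 179 CPM in KEP blood, and 75.8, 66.1 and 64.7 and 84.0, 105 and 132 CPM in lung, with no overlap. In spleen the KEP libraries also lay above the WT ones (65.0, 63.1 and 55.2 CPM in WT, 72.7, 85.3 and 119 CPM in KEP). The fit of 24 called the differences in blood and lung, at 0.75 (SE 0.20, adjusted p = 0.0113) and 0.62 (SE 0.20, adjusted p = 0.0347). The fit of 31 called neither (adjusted p = 0.464 and 0.569). Beside these values, 8 B cell genes summed to 602 to 730 CPM in WT and 824 to 999 CPM in KEP blood. The B cell sum was 356 to 455 CPM in WT and 507 to 543 CPM in KEP lung. In spleen it was 632 to 794 and 691 to 935 CPM, and in lymph node 621 to 714 and 863 to 943 CPM. Its part in the Ccr6 values was not tested.

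KEP against WT mice, the receptors of type 1 responses, gut and retention. Cxcr3, Cxcr6 and Ccr9 had lower means in KEP than in WT Tregs in all 4 tissues, but none was called in the fit of 31 or of 24. With only the libraries compared in the fit, Cxcr3 (-0.75, adjusted p = 0.0396) and Ccr9 (-1.04, adjusted p = 0.0426) were called lower in KEP spleen and Ccr9 lower in KEP lung (-0.68, adjusted p = 0.0436). Cxcr3 was 238, 273 and 318 CPM in WT spleen and 128, 203 and 160.5 CPM in KEP spleen, without overlap (fit of 24, -0.75, SE 0.34, adjusted p = 0.249). Cxcr6 varied up to about 3-fold among WT libraries of blood (308, 101 and 323 CPM), and its KEP libraries there (137, 215 and 118 CPM) fell inside that range. Ccr9, whose counts are uncertain, was 24.7, 26.4 and 38.6 CPM in WT spleen and 9.80, 17.1 and 16.8 CPM in KEP spleen (fit of 24, -1.04, SE 0.34, adjusted p = 0.0997). Cxcr4, the most abundant of the 9 in lung Tregs, had small log2 fold changes: 0.08 in blood, 0.23 in spleen, 0.16 in lung and -0.13 in lymph node, each smaller than its SE of 0.53 to 0.54.

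Beside the spleen values of Cxcr3 and Cxcr6, the sum of 7 CD8 T and NK cell genes was 225 to 367 CPM in WT and 111 to 225 CPM in KEP spleen, and in blood 110.0 to 343 and 58.3 to 196 CPM. Of these genes the fit of 31 libraries called 1, Klrb1c, lower in KEP blood and none in spleen. None of the 7 was at 0 in all libraries of a group, and their part in the receptor values was not tested.

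Counted over the 9 receptors, the fit of 31 libraries called 1 higher in blood, Ccr1, where it called 2.18% of all genes higher and 2.14% lower. It called none in spleen (0.434% of all genes higher, 0.0132% lower), none in lung (1.66% and 1.42%) and none in lymph node (0.0132% and 0%). At an unadjusted p under 0.05 edgeR had 4 receptors in spleen, 1 in lung and 1 in lymph node. Of all 15202 genes tested, 1214 in spleen, 2887 in lung and 874 in lymph node were under 0.05 as well. DESeq2 called 1, 1 and 0 receptors in these tissues and limma-voom 0 in each, and their shares of all genes are not given here. In the fit of 24 libraries 5 receptors were higher in blood (9.88% of the 12825 genes tested there, 10.3% lower), 3 in spleen (3.3% and 0.959%), 4 in lung (9.61% and 10.3%) and 1 in lymph node (0.663% and 0.452%), and none was lower.

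KEP libraries lay wholly above WT libraries for 5 receptors in blood, 4 in spleen, 4 in lung and 2 in lymph node, where 16%, 12.3%, 14.5% and 11.3% of all genes did. They lay wholly below for 0, 2, 2 and 0 receptors, against 12.8%, 9.57%, 15.5% and 9.85% of all genes. The median log2 fold change of the 9 was 0.60 in blood, 0.53 in spleen, 0.63 in lung and -0.06 in lymph node, and that of all genes was 0 in each. No title date held both genotypes, so the date and the genotype cannot be told apart.

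**Figure D3:**
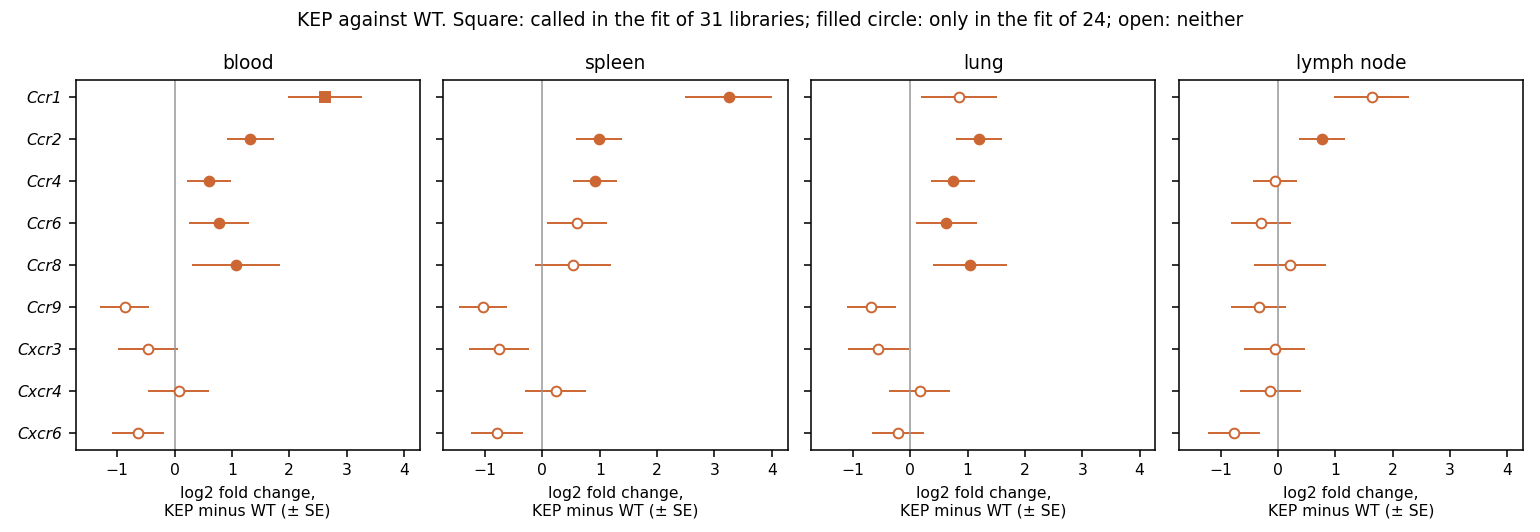
Log2 fold change of KEP minus WT with its SE (x, from the fit of 31 libraries) for each receptor (y) in 4 tissues; squares are called in that fit, filled circles only in the fit of 24 libraries and open circles in neither. Ccr1 and Ccr2 lie to the right of 0 in all 4 tissues, Cxcr3, Cxcr6 and Ccr9 to the left.

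Whether the tumor effect differed between tissues was tested with 6 interaction contrasts. The fit of 31 called no receptor in any of them. It called 0% of all genes between blood and spleen, 0% between lung and spleen, 0% between lymph node and spleen, 0.00658% between blood and lung, 0% between blood and lymph node and 0% between lung and lymph node. At an unadjusted p under 0.05 edgeR had 1 receptor (Ccr1, lung against spleen), and DESeq2 and limma-voom called 0. In that contrast 436 of the 15202 genes tested were under 0.05. In the fit of 24, chosen for this test after the data were seen, Ccr4 was called between lymph node and spleen, where its KEP effect in the node minus that in spleen was -0.95 (SE 0.19, adjusted p = 0.0389), and 0.125% of genes were called.

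Since libraries of 1 KEP date deviated together, these contrasts were also fitted with the title date as a block within each genotype, a choice made after the data were seen. The blocked fit of 31 called no receptor in any of the 6, and at an unadjusted p under 0.05 it had Ccr1 in lung against spleen and in blood against lung. The blocked fit of 24 called Ccr4, Ccr6 and Ccr8 in both contrasts of lymph node with blood and with lung: their KEP minus WT log2 difference was lower in the node. Blood minus node was 0.63 (SE 0.15, adjusted p = 0.0180) for Ccr4, 1.03 (SE 0.16, adjusted p = 0.00131) for Ccr6 and 0.82 (SE 0.24, adjusted p = 0.0393) for Ccr8, where 5.79% of genes were called. Lung minus node was 0.79 (adjusted p = 0.00746), 0.89 (adjusted p = 0.00583) and 0.80 (adjusted p = 0.0189) in the same order, where 3.97% were called. Node minus spleen was called for Ccr4 (-0.95, adjusted p = 0.00269) and Ccr6 (-0.85, adjusted p = 0.0124; 0.577% of genes), and lung minus spleen for Ccr1 (-2.48, adjusted p = 0.0406; 0.296%). No receptor was called between blood and spleen (0.421% of genes; 2 receptors at an unadjusted p under 0.05 in edgeR) or between blood and lung (0%; 1 receptor). The contrasts share groups, and fits that leave out 1 library were not run for the blocked contrasts. For the blocked fits the shares of all genes at an unadjusted p under 0.05 are not given here.

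Tissues against spleen. Lung Tregs held 10.0-fold more Cxcr4 RNA than spleen Tregs in WT mice and 9.57-fold more in KEP mice. Of these 4 tissues spleen had the highest mean of Ccr9 and Cxcr3 in both genotypes, blood the highest of Ccr2 and the lowest of Ccr8. Comparisons with spleen share the spleen libraries of their genotype, so their values stand side by side and are not independent.

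Cxcr4, the CXCL12 receptor, measured 174, 154 and 67.3 CPM in WT spleen and 1377, 1332 and 1259.7 CPM in WT lung. In KEP mice it measured 205, 104 and 154 CPM in spleen and 1359, 1425 and 1658 CPM in lung. The lung libraries of either genotype were all far above every spleen, blood and lymph node library. The log2 fold change of lung against spleen was 3.33 (SE 0.58, adjusted p = 0.000125) in WT and 3.26 (SE 0.58, adjusted p = 0.000142) in KEP. Blood was intermediate, with 368, 389 and 163 CPM in WT and 419.6, 276 and 274 CPM in KEP, and was not called against spleen (1.22, SE 0.54, adjusted p = 0.181, and 1.06, SE 0.54, adjusted p = 0.263). With the title date as a block both were called (1.22, SE 0.32, adjusted p = 0.0209, and 1.09, SE 0.32, adjusted p = 0.0376). The labels state an enzyme digestion for lungs and none for spleens, so tissue and digestion cannot be told apart.

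Ccr9, the gut and thymus receptor, was 24.7, 26.4 and 38.6 CPM in WT spleen and 1.52, 2.22 and 2.89 CPM in WT lymph node, with 9.42, 9.75 and 9.48 CPM in lung and 9.78, 6.78 and 14.1 CPM in blood. Every WT spleen library was above every WT library of the other 3 tissues. In WT it was lower in lymph node (-3.76, SE 0.48, adjusted p = 4.72e-05), lung (-1.65, SE 0.43, adjusted p = 0.00517) and blood (-1.55, SE 0.42, adjusted p = 0.0247). KEP mice had 9.80, 17.1 and 16.8 CPM in spleen and 2.03, 2.70 and 0.494 CPM in lymph node, and the fold changes were -3.05 (SE 0.47, adjusted p = 0.000686) in lymph node, -1.28 (SE 0.43, adjusted p = 0.0256) in lung and -1.38 (SE 0.43, adjusted p = 0.0504) in blood, the last one not called. With the title date as a block Ccr9 in KEP blood was called as well (-1.47, SE 0.38, adjusted p = 0.0168). The KEP lung call was lost in 5 of the 6 fits that left out a library (all but KEP spleen replicate 1) and the WT blood call in 4 of 6 (WT blood replicates 1 and 2, WT spleen replicates 2 and 3), with adjusted p between 0.0552 and 0.120 in those fits.

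Cxcr3, the receptor of CXCL9 and CXCL10, was 238, 273 and 318 CPM in WT spleen, 54.3, 74.5 and 57.7 CPM in WT lymph node, 137, 137 and 129 CPM in WT lung and 212, 111 and 252 CPM in WT blood. Lymph node libraries were all below the lung libraries, and those below the spleen libraries, while blood overlapped both. The fall in lymph node was called in WT (-2.15, SE 0.55, adjusted p = 0.0385), though it lost the call whenever 1 library of the comparison was left out, and in KEP it was called in the fit of 24 alone (-1.45, SE 0.35, adjusted p = 0.0133). Beside it, the CD8 T and NK cell sum was 69.5 to 85.3 CPM in WT lymph node and 225 to 367 CPM in WT spleen; its part was not tested. Cxcr6 ran lower in lymph node and lung than in spleen in both genotypes and was called in WT lung in the fit of 24 (-1.20, SE 0.42, adjusted p = 0.0282).

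Ccr2 was highest in blood. KEP blood held 1036 ± 113 CPM and KEP spleen 346 ± 41.2 CPM, a log2 fold change of 1.58 (SE 0.41, adjusted p = 0.0180), and the call was lost in 5 of the 6 fits that left out a library (all but KEP blood replicate 2). WT blood held 414 ± 79.2 CPM and WT spleen 174 ± 50.3 CPM (1.25, SE 0.41, adjusted p = 0.0582; 1.26, SE 0.18, adjusted p = 4.18e-05 in the fit of 24). Ccr4 was higher in blood and in lung than in spleen in the fit of 24, in WT by 0.73 and 0.72 and in KEP by 0.40 and 0.54 on the log2 scale (adjusted p from 0.000118 to 0.0295). Ccr1 counts in WT blood, spleen, lung and lymph node stayed between 3 and 25 per library. Its higher level in WT blood, lymph node and lung than in spleen passed in the fit of 24 (adjusted p = 0.00524, 0.0426 and 0.00321) and not in that of 31.

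Ccr8 in WT mice was lowest in blood and highest in lymph node. It was 3.23, 3.00 and 2.15 CPM in WT blood, 8.36, 8.91 and 7.03 CPM in spleen, 13.5, 12.7 and 11.7 CPM in lung and 21.4, 27.04 and 18.2 CPM in lymph node, 4 ranges that did not touch. In the fit of 24 it was lower in WT blood (-1.53, SE 0.31, adjusted p = 0.000914) and higher in WT lung (0.65, SE 0.26, adjusted p = 0.0494) and WT lymph node (1.46, SE 0.25, adjusted p = 0.000530), and the same directions were called in KEP (adjusted p = 0.00808, 0.000493 and 0.00339). None of these passed in the fit of 31 (lowest adjusted p = 0.195). Ccr6 was highest in WT lymph node among WT tissues, at 159, 122 and 102 CPM against 65.0, 63.1 and 55.2 CPM in spleen, which the fit of 24 called (1.07, SE 0.20, adjusted p = 0.00155). In KEP mice blood led, at 146, 158 and 179 CPM.

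**Figure D4:**
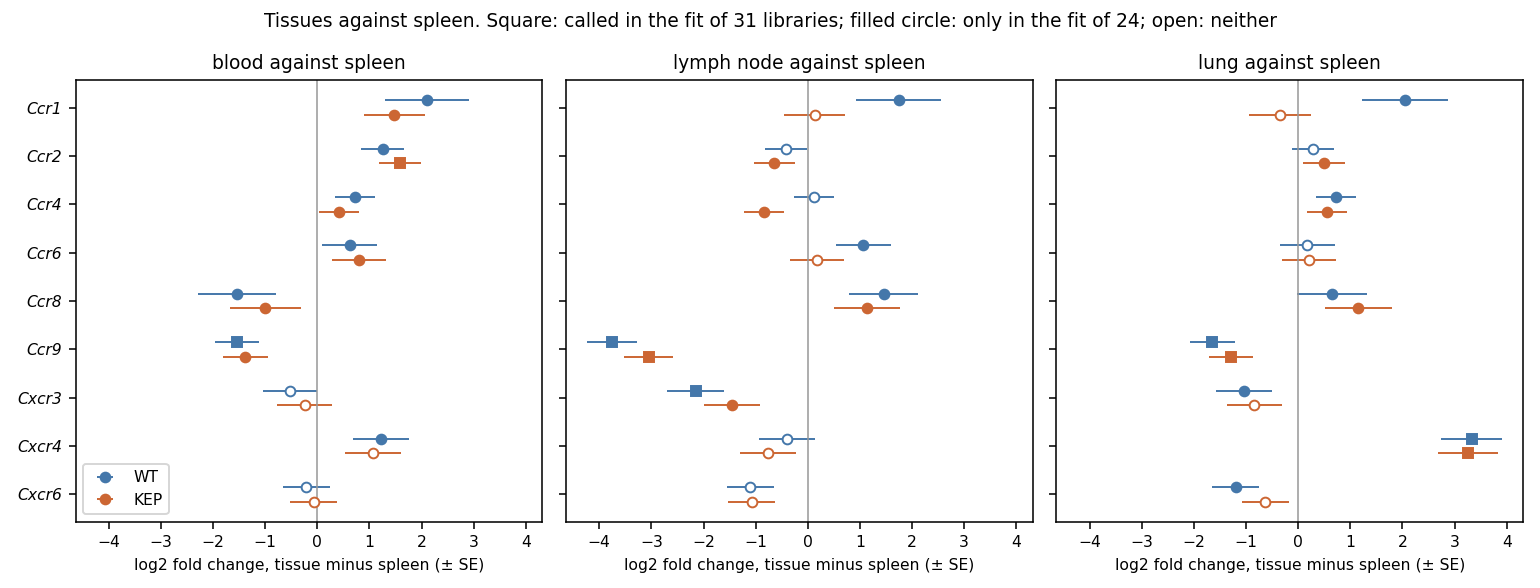
Log2 fold change of blood, lymph node and lung minus spleen with its SE (x, from the fit of 31 libraries) for each receptor (y), blue for WT and orange for KEP; squares are called in that fit, filled circles only in the fit of 24 libraries and open circles in neither. Cxcr4 stands far to the right in lung, and Ccr9 lies to the left in all 3 panels.

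The fit of 31 called, of the 9 receptors, in WT blood 0 higher and 1 lower (4.48% and 3.4% of all genes), in WT lymph node 0 higher and 2 lower (0.934% and 1.02%) and in WT lung 1 higher and 1 lower (15.1% and 11.9%). In KEP mice it called in blood 1 higher and 0 lower (3.85% and 3.38%), in lymph node 0 higher and 1 lower (0.493% and 1.13%) and in lung 1 higher and 1 lower (14.7% and 13.5%). The fit of 24 called 5 receptors higher and 2 lower in WT blood. Of its 12825 genes it called 1765 higher and 1507 lower there. In WT lymph node it called 3 and 2 (585 and 565 genes) and in WT lung 4 and 3 (2958 and 2801 genes). In KEP blood it called 4 and 2 (1582 and 1568 genes). In KEP lymph node it called 1 and 4 (686 and 734 genes) and in KEP lung 4 and 1 (3037 and 3129 genes). With the title date as a block 2 receptors were called in WT blood and 3 in KEP blood. The shares of all genes called in that blocked fit are not given here.

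The tumor and the mammary gland. In the tumor libraries Ccr8 and Ccr1 stood above all other libraries of the series. In 2 of these 3 libraries pan-T RNA was 60.8 and 31.3% of the WT spleen level, and Ccr1 was highest in the tumor with the highest macrophage, neutrophil and dendritic cell sums. Ccr8, a receptor of activated tissue Tregs, measured 306, 114 and 102 CPM in the 3 tumors, 4.99, 30.1, 1.70 and 1.93 CPM in the 4 glands and at most 31.9 CPM in any library of the other tissues. Every tumor library was above every other library of the series. Tumor exceeded KEP spleen by 3.89 (SE 0.69, adjusted p = 4.02e-05) on the log2 scale, KEP blood by 4.89 (SE 0.73, adjusted p = 4.83e-06), KEP lymph node by 2.76 (SE 0.65, adjusted p = 0.000847) and KEP lung by 2.74 (SE 0.65, adjusted p = 0.00115), comparisons that share the tumor libraries.

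Since T cell RNA made up less of some tumor and gland libraries, counts were also expressed per 1000 counts of the 10 pan-T genes. On that scale Ccr8 was 50.9, 33.1 and 57.5 in tumors, 11.8, 16.9, 10.6 and 9.35 in glands and at most 5.63 elsewhere, so the 3 sets did not overlap. With library sizes scaled to the pan-T genes the difference between tumor and gland was 1.94 (SE 0.36, adjusted p = 1.61e-05), less than the 4.19 (SE 0.62, adjusted p = 7.82e-06) of the TMM fit.

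Ccr1 was 47.5, 120.1 and 44.0 CPM in the tumors, 2.34, 5.96, 1.05 and 0.344 CPM in the glands and at most 15.3 CPM elsewhere. Against KEP spleen the log2 fold change was 4.19 (SE 0.63, adjusted p = 5.06e-06) and against the gland 4.89 (SE 0.58, adjusted p = 4.18e-07). The macrophage and monocyte sum in the same tumors was 903, 5685 and 1441 CPM, the neutrophil sum 133, 2522 and 81.6 CPM and the dendritic cell sum 894, 2836 and 696 CPM, each highest in replicate 2, where Ccr1 was highest too. In the glands the macrophage sum was 601, 413, 719 and 904 CPM. Against the gland 8 of 11 macrophage genes, 5 of 5 dendritic cell genes and 5 of 7 neutrophil genes were called higher in tumor, and their part in the Ccr1 and Ccr2 values was not tested.

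Ccr2 was 585, 582 and 171 CPM in the tumors and 26.9, 57.2, 9.74 and 22.03 CPM in the glands. Tumor lay below KEP blood (-1.22, SE 0.40, adjusted p = 0.0118) and above KEP lymph node (1.01, SE 0.40, adjusted p = 0.0342), and did not pass against spleen or lung (adjusted p = 0.433 and 0.802). The call against blood was lost without KEP tumor replicate 3 (adjusted p = 0.0802). The call against lymph node was lost in 5 of the 6 fits that left out a library (all but KEP tumor replicate 3) and with the title date as a block (0.94, SE 0.42, adjusted p = 0.0603). With pan-T scaling the call against blood was lost (-0.61, SE 0.36, adjusted p = 0.172) and a rise over spleen appeared (1.04, SE 0.36, adjusted p = 0.0232).

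Cxcr4 was 1332, 776 and 1314 CPM in the tumors, not called against KEP lung (-0.38, SE 0.53, adjusted p = 0.572) and above KEP spleen (2.88, SE 0.57, adjusted p = 0.000140), blood (1.82, SE 0.55, adjusted p = 0.00600) and lymph node (3.64, SE 0.59, adjusted p = 1.33e-05). Per 1000 pan-T counts it was 222, 226 and 743 in the tumors, 486, 329.8, 578 and 398 in the glands, 240.1, 242 and 289 in KEP lung and 35.3, 18.3 and 25.5 in KEP spleen. Tumor, gland and lung libraries thus lay above all libraries of spleen, blood and lymph node on this scale, and the tumors overlapped the glands. The labels state an enzyme digestion for tumors as for lungs, so tissue and digestion cannot be told apart here either.

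Ccr4, Ccr6 and Ccr9 were each called lower in the tumor than in 3 of the 4 other KEP tissues. Ccr4 was 198, 88.1 and 85.9 CPM in the tumors and fell against spleen (-1.25, SE 0.39, adjusted p = 0.00769), blood (-1.66, SE 0.39, adjusted p = 0.000807) and lung (-1.80, SE 0.39, adjusted p = 0.000537). Ccr6 was 59.9, 20.4 and 41.2 CPM and fell against blood (-1.99, SE 0.54, adjusted p = 0.00283), lymph node (-1.37, SE 0.53, adjusted p = 0.0304) and lung (-1.40, SE 0.53, adjusted p = 0.0307). Ccr9 gave 14 to 21 counts per tumor and fell against spleen (-3.21, SE 0.48, adjusted p = 3.92e-06), blood (-1.83, SE 0.47, adjusted p = 0.00174) and lung (-1.92, SE 0.47, adjusted p = 0.00144). A fit without KEP tumor replicates 2 and 3, whose pan-T sums were below those of all 24 other libraries, left 1 tumor library, which was assumed to vary like the other groups. There the falls of Ccr4 (-0.56 against spleen, -0.96 against blood and -1.11 against lung; adjusted p from 0.139 to 0.436) and of Ccr6 (-1.40 against blood, -0.79 against lymph node and -0.83 against lung; adjusted p from 0.158 to 0.455) lost their calls, as did that of Ccr2 against blood (-0.80, adjusted p = 0.233). Those of Ccr9 were called (-3.38 against spleen, -1.99 against blood and -2.10 against lung; adjusted p up to 0.0321). Against spleen, blood, lymph node and lung, that 1 tumor library was higher in Ccr8 by 4.72, 5.73, 3.58 and 3.57 and in Ccr1 by 3.63, 2.17, 3.50 and 3.98 on the log2 scale, all called under the same assumption. The calls of Ccr6 against lymph node and lung were each lost in 4 of the 6 fits that left out 1 library, tumor replicates 2 and 3 among them. Pan-T scaling ended the calls of Ccr4 against spleen, of Ccr6 against lymph node and lung and of Ccr9 against blood and lung.

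Cxcr3 (96.7, 104 and 16.8 CPM) and Cxcr6 (176, 98.0 and 61.5 CPM) were not called between the tumor and any other KEP tissue. Of the 9 receptors the tumor had 3 higher and 2 lower than spleen (35.6% and 25.9% of all genes), 3 higher and 4 lower than blood (36.2% and 26.5%), 4 higher and 1 lower than lymph node (35% and 25.5%) and 2 higher and 3 lower than lung (32.1% and 21.6%). With so many genes called, these counts are near the background.

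**Figure D5:**
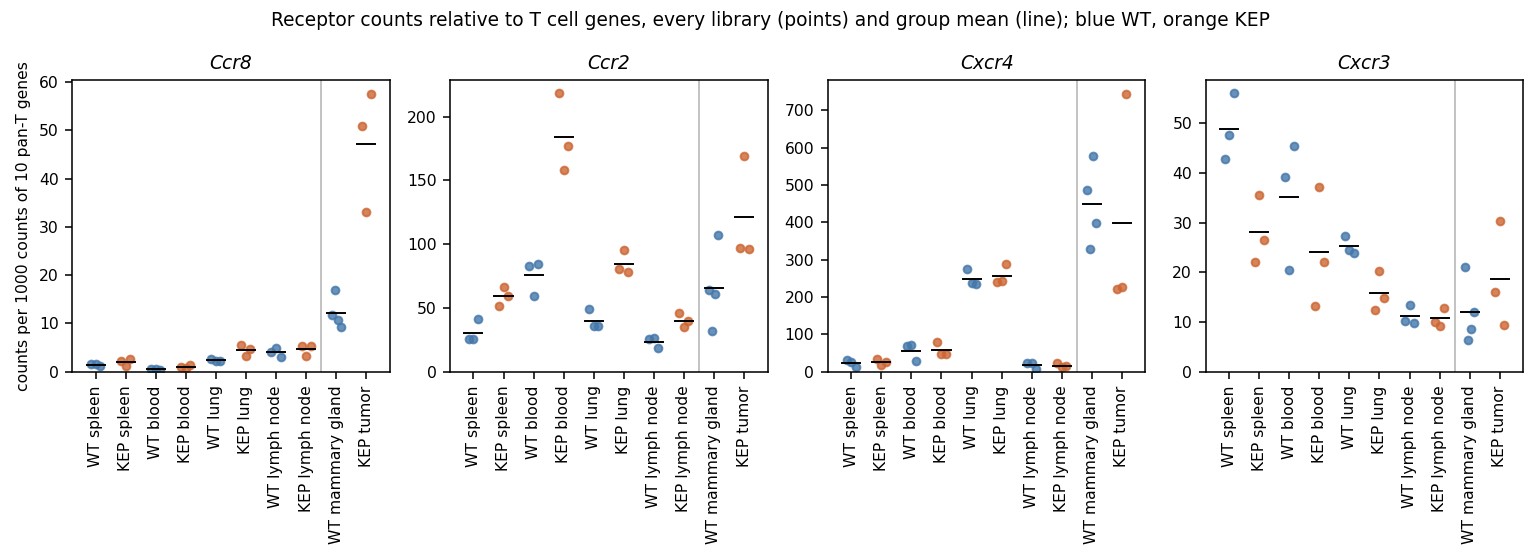
Counts of Ccr8, Ccr2, Cxcr4 and Cxcr3 per 1000 counts of 10 pan-T genes (y, linear from 0) in the 10 groups (x), 1 point per library and a line at the group mean, blue for WT and orange for KEP. On this scale Ccr8 in all 3 tumors exceeds every other library, and Cxcr4 is high in lung, gland and tumor. The mean of Ccr2 is highest in KEP blood (158 to 219), whose range overlaps that of the tumor (96.5 to 169).

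Against the mammary gland all 9 receptors were called higher in tumor, where 23.5% of all genes were called higher and 29.5% lower. The log2 fold changes ran from 2.24 (Cxcr4) to 4.89 (Ccr1), with a median of 3.30 against -0.10 for all genes, and all 10 pan-T genes were called higher too, with a median of 2.58. With pan-T scaling, which moved the median of all genes to -3.44, Ccr1 (2.41, SE 0.54, adjusted p = 0.000157), Ccr8 and Ccr2 (0.88, SE 0.34, adjusted p = 0.0152) were still called, 3 others kept a positive sign without a call, and Ccr4, Cxcr4 and Cxcr6 turned negative without a call. With replicate 2, the gland library richest in T cell RNA, as the only gland library, not all of the 9 kept their call. That lone library was assumed to vary like the other groups, and the share of all genes called there is not given here.

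The gland itself had 1 receptor, Ccr1, called higher and 6 lower than WT spleen (43.9% and 32.2% of all genes), and all 10 pan-T genes were called lower there (median -3.30). For Ccr1 the ranges overlapped, at 0.344 to 5.96 CPM in gland and 0.224 to 0.564 CPM in WT spleen. The macrophage and monocyte sum was 413 to 904 CPM in gland and 26.02 to 65.5 CPM in WT spleen, and its part in Ccr1 was not tested. With pan-T scaling Ccr2 and Ccr4 turned from lower to higher (1.10, SE 0.35, adjusted p = 0.00398, and 0.76, SE 0.31, adjusted p = 0.0196), Cxcr4 and Ccr8 were called higher (4.26, SE 0.53, adjusted p = 3.50e-08, and 3.10, SE 0.41, adjusted p = 6.05e-08), and Ccr9 and Cxcr3 stayed lower (-4.31, SE 0.64, adjusted p = 4.03e-07, and -2.02, SE 0.43, adjusted p = 6.13e-05). That scaling moved the median of all genes to 4.5, so genes of other cells also stand high on it.

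The rest of the pathway. The counts below stand beside all genes tested, of which 23.5% were called higher and 29.5% lower in tumor than in gland. In lung against spleen the shares were 15.1% and 11.9% in WT and 14.7% and 13.5% in KEP. T cell content differed between tumor and gland. The pan-T sum was 2.83 to 31.5% of the WT spleen mean in the gland and 31.3 to 106% in the tumor. Values with pan-T scaling are not given here for these lists, so their tumor and gland differences cannot be separated from T cell content. Of 13 tested receptors outside the 9, 6 were called higher and 2 lower in tumor than in gland, among them Ccrl2, an atypical receptor (177 ± 63.6 against 34.7 ± 10.3 CPM, log2 fold change 2.35, adjusted p = 3.70e-09), and Ackr1, the scavenging receptor of endothelium (1.15 ± 1.07 against 77.3 ± 19.4 CPM, log2 fold change -6.05, adjusted p = 6.92e-07). In lung against spleen 6 were higher in WT, and 3 higher and 1 lower in KEP. Ccrl2 rose in both, at 45.1 ± 3.42 against 9.52 ± 0.8295 CPM, log2 fold change 2.24, adjusted p = 8.99e-08 in WT and 74.2 ± 8.94 against 12.1 ± 2.51 CPM, log2 fold change 2.61, adjusted p = 5.50e-09 in KEP. Ackr2, a scavenger of inflammatory CC chemokines, was called higher in both at a low level (1.17 ± 0.548 against 0.0286 ± 0.0495 CPM, adjusted p = 0.00973 in WT), and Ackr3 and Ackr4 were called as well, the latter in WT alone. Ccr7 and Ccr10 in WT lung and Cxcr5, which fell in KEP lung, complete the calls; these 3, like others below that are given without a value or only by their fold change, were named after their values were seen. The count of 6 in WT lung fell to 2 or 3 in 5 of the 6 fits that left out a library (all but WT lung replicate 3), and that of 4 in KEP lung to 2 without KEP lung replicate 1, KEP lung replicate 2 or KEP spleen replicate 3.

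Of 16 tested ligand genes for these receptors, 11 were called higher and 0 lower in tumor than in gland, including Ccl5 (81.1 ± 90.5 against 3.81 ± 1.97 CPM, log2 fold change 4.42, adjusted p = 1.70e-05), Ccl4 (17.3 ± 14.7 against 1.16 ± 0.488 CPM, log2 fold change 3.90, adjusted p = 1.33e-05) and Ccl12 (14.5 ± 14.2 against 0.0525 ± 0.0352 CPM, adjusted p = 3.03e-05). Ccl12 is a ligand of CCR2. The count was 5 with sorted cell number as a covariate and 7 with gland replicate 2 as the only gland library. In lung against spleen 3 ligand genes were higher in WT and 4 in KEP, and Cxcl10, a CXCR3 ligand, stood out (29.6 ± 3.89 against 1.46 ± 0.159 CPM, log2 fold change 4.33, adjusted p = 1.29e-06 in WT; 51.5 ± 19.8 against 1.07 ± 0.577 CPM, log2 fold change 5.59, adjusted p = 5.46e-08 in KEP). Cxcl16 stayed below 3 CPM in lung (1.92 ± 0.422 against 0.166 ± 0.223 CPM, adjusted p = 0.000658 in KEP). Cxcl12 in both genotypes and Ccl20 in KEP were called as well. Beside the lung values, the macrophage sum was 112 to 188 CPM in WT lung and 26.02 to 65.5 CPM in WT spleen, with 4 of 11 genes called higher, and its part was not tested. The 4 in KEP fell to 2 without KEP lung replicate 2, KEP spleen replicate 1 or KEP spleen replicate 2.

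Of 26 genes of receptor signalling and desensitisation, 5 were higher and 2 lower in lung than in spleen in each genotype, shares near those of all genes. The regulators of G protein signalling Rgs2 and Rgs16, which shorten the signal of such receptors, were higher in both. Rgs2 was 544 ± 63.3 against 20.7 ± 3.70 CPM, log2 fold change 4.71, adjusted p = 5.40e-10 in WT and 454 ± 40.1 against 15.7 ± 4.2 CPM, log2 fold change 4.86, adjusted p = 3.70e-10 in KEP. Rgs16 was 164 ± 23.5 against 21.2 ± 1.42 CPM, log2 fold change 2.95, adjusted p = 7.94e-09 in WT and 182 ± 36.2 against 21.3 ± 1.71 CPM, log2 fold change 3.10, adjusted p = 3.42e-09 in KEP. The 2 that were lower were Rgs3 and Rgs19 in both genotypes, Rgs3 with 85.8 ± 5.57 against 178 ± 13.8 CPM, log2 fold change -1.05, adjusted p = 0.000145 in WT and Rgs19 with 69.4 ± 10.8 against 114 ± 5.20 CPM, log2 fold change -0.71, adjusted p = 0.000751 in KEP. In tumor against gland 23 were higher and 2 lower, 13 in all with gland replicate 2 as the only gland library. Arrb2, a beta-arrestin that internalises receptors, rose (169 ± 85.7 against 30.9 ± 19.3 CPM, log2 fold change 2.45, adjusted p = 6.96e-07), its relative Arrb1 fell (138 ± 29.6 against 303 ± 26.2 CPM, log2 fold change -1.13, adjusted p = 3.11e-08), and Elmo1, which links G proteins to Rac and migration, rose (153 ± 47.0 against 46.1 ± 20.6 CPM, log2 fold change 1.74, adjusted p = 2.10e-07). The part of T cell content in these tumor and gland values was not tested.

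Of 20 transcription factors of T helper and effector Treg states, 5 were higher in lung than in spleen in WT, and 6 higher and 1 lower in KEP. Nfil3 had the smallest p (203 ± 34.8 against 9.34 ± 0.622 CPM, log2 fold change 4.44, adjusted p = 1.13e-12 in WT; 328 ± 36.2 against 18.4 ± 3.92 CPM, log2 fold change 4.15, adjusted p = 1.30e-12 in KEP), followed by Rora, a factor of tissue and type 17 T cells (643 ± 38.0 against 164 ± 18.6 CPM, log2 fold change 1.97, adjusted p = 4.22e-05 in WT; 736 ± 83.7 against 183 ± 7.84 CPM, log2 fold change 2.01, adjusted p = 3.16e-05 in KEP). Ahr in WT lung (36.0 ± 4.83 against 16.2 ± 1.20 CPM, log2 fold change 1.15, adjusted p = 8.39e-05) and Hif1a, the hypoxia-inducible factor, in KEP lung (475 ± 50.01 against 224 ± 19.1 CPM, log2 fold change 1.09, adjusted p = 6.80e-05) rose as well. In tumor against gland 11 were higher and 3 lower, with Hif1a (690.0 ± 183 against 172 ± 41.2 CPM, log2 fold change 2.01, adjusted p = 3.16e-09) and Prdm1, the gene of Blimp-1 (118 ± 47.5 against 22.9 ± 9.05 CPM, log2 fold change 2.37, adjusted p = 4.03e-08), among those of smallest p. Here too the part of T cell content was not tested.

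Among markers of other cells, those of activated conventional CD4 T cells stood higher in lung than in spleen: 4 of 10 were called higher in WT (Ifng, Il17a, Il17f and Il22) and 5 in KEP (Il17a, Il17f, Il22, Csf2 and Cd40lg), with a sum of 113 to 182 CPM in WT lung and 77.3 to 110.0 CPM in WT spleen. Il17a was 4.75 ± 1.10 CPM in WT lung and had no count in any spleen library. B cell genes moved the other way, with 4 of 8 lower in WT lung and 7 of 8 in KEP lung. The gate does not exclude activated conventional T cells, and their part in the lung values of Cxcr4 was not tested. Ctla4, an inhibitory receptor of Tregs, was the 1 of 6 Treg identity genes called in lung (1935 ± 136 against 268 ± 68.2 CPM, log2 fold change 2.85, adjusted p = 0.00380 in WT).

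Between KEP and WT mice 2.18% of all genes were called higher and 2.14% lower in blood, 1.66% and 1.42% in lung, 0.434% and 0.0132% in spleen and 0.0132% and 0% in lymph node. Of the 16 ligand genes none was called in any of the 4 tissues. Of the 26 signalling genes 3 were higher and 1 lower in KEP blood and 3 higher in KEP lung. Gnai3, the alpha subunit of an inhibitory G protein, was higher in KEP blood (256 ± 7.51 against 191 ± 16.1 CPM, log2 fold change 0.42, adjusted p = 0.00966) and lung (279.7 ± 13.1 against 208 ± 14.1 CPM, log2 fold change 0.43, adjusted p = 0.0109), as were Gnaq (log2 fold changes 0.75 and 0.89) and Rac1, a GTPase of the moving cell edge (0.42 and 0.42). Rgs2 was lower in KEP blood (-1.19), and none of the 26 was called in spleen or lymph node.

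Of the 20 transcription factors 3 were higher and 2 lower in KEP blood, 3 higher and 1 lower in lung, 1 higher in spleen and 0 called in lymph node. Prdm1, a factor of effector Tregs, was higher in blood (157 ± 15.4 against 73.7 ± 6.29 CPM, log2 fold change 1.09, adjusted p = 0.0174) and in lung (157 ± 6.52 against 75.7 ± 12.3 CPM, log2 fold change 1.05, adjusted p = 0.0251). Hif1a was higher in both as well (log2 fold changes 0.82 and 0.67), Ahr in blood (0.68), and Nfil3 in lung and spleen (0.69 and 0.98). The genes that were lower are known from naive and central T cells: Bach2 and Tcf7 in blood (-1.24 and -1.48) and Klf2 in lung (-0.88). Settings other than the fit of 31 were not run for these counts.

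How the receptors moved with each other and with other genes. Over the 24 libraries outside tumor and gland, which share tissues, mice and dates, Ccr9 and Cxcr3 were the most alike of the 36 pairs (Pearson r of log2 CPM 0.87), then Ccr2 and Ccr4 (0.82) and Cxcr3 and Cxcr6 (0.78). Ccr8 ran most against Cxcr3 (-0.67) and Cxcr6 (-0.62). Along the cluster on chromosome 9, adjacent members had r = 0.64 (Ccr9 and Cxcr6), -0.34 (Cxcr6 and Ccr1) and 0.70 (Ccr1 and Ccr2), and its ends, Ccr9 and Ccr2, 0.06.

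The genes most like each receptor were sought among 9330 others with a mean of at least 5 CPM. For Cxcr4 they were Zc3hav1 (r = 0.96 over 24 libraries, 0.83 over all 31), P2ry10 (0.96 and 0.86) and Rnf125 (0.96 and 0.90), the last pairs of numbers being r over 24 and over 31 libraries in the same order. For Ccr2 they were Cd48 (0.96 and 0.90) and Ctsa (0.95 and 0.76). Cd48 is a surface receptor of leukocytes, and Ctsa is a lysosomal enzyme. For Ccr8 they were Pmepa1 (0.94 and 0.64), Tiam1 (0.89 and 0.62) and Tnfrsf9 (0.88 and 0.95). Tnfrsf9 encodes 4-1BB, a costimulatory receptor of activated T cells, and of the 3 it had the highest r once tumor and gland were included. For Cxcr3 they were Trbv1 (0.96 and 0.95), Nkg7 (0.95 and 0.92) and Soat2 (0.94 and 0.70). Nkg7 is a gene of cytotoxic granules and Trbv1 a T cell receptor segment. For Ccr9 they were Aqp9 (0.93 and 0.85), Trbv1 (0.92 and 0.87) and Tbkbp1 (0.90 and 0.07).

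For Ccr4 they were Cass4 (0.95 and 0.97), Plekhb2 (0.94 and 0.97) and Itga2 (0.93 and 0.17). For Ccr1 they were Rassf4 (0.92 and 0.53), Lat2 (0.90 and 0.91) and Trp73 (0.90 and 0.39), for Ccr6 Gng2 (0.86 and 0.94), Farp1 (0.85 and -0.73) and Arnt2 (0.84 and 0.86), and for Cxcr6 Id2 (0.90 and 0.64), Slc9a9 (0.87 and 0.91) and F2rl2 (0.86 and 0.88). Id2 is a transcriptional regulator of effector lymphocytes. Several of these likenesses were lower once the tumor and gland libraries were included: over all 31 libraries r was 0.07 for Tbkbp1 and Ccr9, 0.17 for Itga2 and Ccr4 and -0.73 for Farp1 and Ccr6.

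Ordered by mean, the levels of a receptor spanned 16.2-fold (Cxcr4) to 186-fold (Ccr9) across the 10 groups, with the gland lowest for 6 of the 9. For Cxcr4 the order was KEP lung, WT lung, tumor, KEP blood, WT blood, gland, KEP spleen, WT spleen, WT lymph node and KEP lymph node, and the ranges of the tumor and KEP blood were the only neighbours that did not overlap. For Ccr8 it was tumor, KEP lung, KEP lymph node, WT lymph node, WT lung, KEP spleen, gland, WT spleen, KEP blood and WT blood. The tumor stood clear of KEP lung, WT lymph node of WT lung and KEP blood of WT blood. For Ccr2 KEP blood stood clear of all groups, followed by KEP lung, tumor, WT blood and KEP spleen with overlapping ranges. For Ccr6, from KEP blood at the top to the gland at the bottom, the ranges of all neighbours overlapped.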

How the data were processed

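Counts of reads per gene for 31 libraries (24594 genes, 172 of them at 0 throughout) were used as deposited by the authors. Stranded mRNA libraries were sequenced as single reads of 65 bases, per the labels' protocols. TopHat2 2.1.0, HTSeq and GRCm38 are listed, per the submitters' processing notes. The annotation release and the strand setting are not given in the sources used here. Groups follow the labels; replicate numbers are by accession order.

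Counts were scaled with TMM and fitted together in edgeR 4.0.16 (R 4.3.3) with the robust quasi-likelihood F test, after filterByExpr with a minimum count of 10 (15202 genes); a call is a Benjamini-Hochberg adjusted p below 0.05 over all genes tested. A second fit left out tumor and gland (24 libraries, 12825 genes). Alternatives were DESeq2 1.42.0, limma-voom (limma 3.58.1), other scalings, filters and subsets, and the title date as a block; the scripts were tested on simulated data. The 9 receptors, the gene lists and the tests were chosen with earlier results of these data known. Genes of the related lists are named where they had the 3 smallest adjusted p in lung against spleen or in tumor against gland; genes like a receptor are the 3 of highest Pearson r over the 24 libraries. Some genes these rules pick are not reported here. Markers and lists were chosen by hand, and Cxcr2 and Xcr1 stand both among cell markers and among receptors.

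Depth was 8154765 to 15258958 counts, and counts without molecular identifiers measure more than sampling error: the chi-square of libraries within a group, per degree of freedom, ran from 4.45 to 177, so none was a duplicate. WT replicates pool mice and KEP replicates are mice, so the spread differs in kind between genotypes. Titles carry dates. Libraries of 1 KEP date deviated together in all 18 pairs among the 4 tissues (median correlation 0.27, lowest 0.19), those of 1 WT date in 7 of 18 pairs over 0.1 (median 0.09); pairs with tumor or gland had medians near 0.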

Additional observations from a re-analysis of the deposited data

Results flagged for a closer look

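In the WT mammary gland 1 of the 4 libraries, replicate 2, stood far above the other 3 for 3 receptors, by the gap to its nearest neighbour relative to the group's range. Ccr6 was 22.4 CPM there (gap 0.875 of the range, past Dixon's critical value for 4 samples), Ccr8 30.1 CPM (0.884) and Ccr9 0.432 CPM (0.972; 5 counts). The same library had 31.5% of the WT spleen level of the 10 pan-T genes, where the other 3 had less. Chance marks about 1 in 20 groups in this way, and each of the 9 receptors was looked at in this 1 group.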

How the results depend on the processing

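Over the 16 comparisons and all alternatives run, 2173 fold changes of single receptors kept their direction and their side of the threshold, 117 passed it only under an alternative, 78 no longer passed it, and 52 changed sign. Of the 52, 46 were called neither as reported nor under the alternative. They fall in 22 of the 144 pairs of receptor and comparison, with values as reported of at most 0.87 in size, among them Cxcr4 in blood (0.08, down to -0.51), in spleen (0.23, down to -0.09) and in lymph node for KEP against WT and Cxcr3 and Ccr9 in lymph node. The other 6, called in 1 of the fits, were Ccr4 (-0.40), Cxcr4 (-0.17) and Cxcr6 (-0.36) in tumor against gland and Ccr2 (1.10) and Ccr4 (0.76) in gland against spleen, all with pan-T scaling, and Ccr8 in gland against spleen when leaving out 1 library (-1.52 without gland replicate 2, 0.58 without gland replicate 3).

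For KEP against WT, the counts of receptors called were, in blood, 1 as reported, 5 with 24 libraries, 4 with only the libraries compared, 2 with DESeq2, 0 with limma-voom, pan-T scaling or sorted cells as a covariate, and 0 to 1 when leaving out 1 library. In spleen they were 0 as reported, 3 with 24 libraries, 5 with only the libraries compared (3 higher, 2 lower), and 1 each with DESeq2, a minimum count of 50, sorted cells and upper-quartile factors. In lung they were 0 as reported, 4 with 24 libraries, 5 with only the libraries compared (4 higher, 1 lower) and 1 with DESeq2, and in lymph node 0, 1 and 1 with the first 2 of these alternatives. Between tissues 1 receptor's genotype effect was called for lymph node against spleen with 24 libraries and 1, Ccr4, for lung against lymph node with only the libraries compared. With 24 libraries and the replicate block 3 were called for blood against lymph node, 3 for lung against lymph node, 2 for lymph node against spleen and 1 for lung against spleen; with 31 libraries and the replicate block 0 in each.

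Against spleen, WT blood gave 1 as reported, 7 with 24 libraries, 6 with only the libraries compared, 3 with DESeq2, 2 each with limma-voom, the replicate block, sorted cells and upper-quartile factors, 0 with pan-T scaling and 0 to 1 leaving out 1 library. WT lymph node gave 2, with 5, 4 and 1 (no filter) and 1 in every fit that left out 1 library; WT lung gave 2, with 7, 7, 4 (DESeq2) and 1 (pan-T scaling). KEP blood gave 1, with 6 and 4, 3 with the replicate block, 2 each with DESeq2, limma-voom, a minimum count of 50, sorted cells and upper-quartile factors, and 0 to 2 leaving out 1 library. KEP lymph node gave 1, with 5 and 4; KEP lung gave 2, with 5, 6 and 1 (pan-T scaling), and 1 to 2 leaving out 1 library. Tumor against gland gave 9, with 3 under pan-T scaling. Tumor against blood gave 7, with 4 without tumor replicates 2 and 3, which leaves 1 tumor library assumed to vary like the other groups; against lung 5, with 3 then and with pan-T scaling; against lymph node 5, with 3 without a filter and 3 to 4 leaving out 1 library. The cause was not tested. Beyond the shares stated above, the share of all genes called under each alternative of this section is not given here. The counts of receptors under those alternatives therefore cannot be set against all genes. The pairing by title date as a replicate block could not be set up between genotypes, since no date holds both, and changed no other count by over 1.5 times.

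Limits: with 3 libraries per group and fits that share their spread, which receptors pass depends on the libraries fitted, and at 3 to 6 counts per library Ccr1 in WT spleen is measured poorly. Gland libraries hold little T cell RNA, so their levels and those of 2 tumors cannot be separated from cell content. WT pools and KEP single mice, and dates and genotype, cannot be told apart.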
